A study of Homo sapiens with 3 samples.

Results

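The regions described here are the FOXA2 peaks of human chromosome 20 in Caco2 cells, on the hg19 build. There were 2542 of them among 90856 deposited peaks: 1874 of 63949 in replicate 1 and 668 of 26907 in replicate 2. They were chosen by the position of the called peaks. A peak with its midpoint under 26.3 Mb belongs to the short arm, 20p, and a peak with its midpoint over 29.4 Mb to the long arm, 20q. Replicate 1 had 600 peaks on 20p and 1274 on 20q. Replicate 2 had 231 and 435, and 2 further peaks between the arms. Chromosome 20 was picked with its excess of replicate 1 peaks already known, so that excess is given as a description. The data are 2 FOXA2 chromatin immunoprecipitations followed by sequencing (ChIP-seq) from a single, untreated culture condition, low-glucose DMEM with 10% serum. Caco2 is an established line from a human colorectal adenocarcinoma, used as a model of intestinal epithelium. Nothing in the labels says if these were separate cultures, and the spread between the replicates may be technical.

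FOXA2 is a forkhead transcription factor of endoderm-derived tissues that can bind its sites in compacted chromatin and helps to set up liver, pancreas and gut gene programmes. Chromosome 20 carries its own gene on the short arm and that of HNF4A, a nuclear receptor of liver and intestinal epithelium, on the long arm. Gain of 20q is among the frequent chromosome changes of colorectal cancer. The copy number of neither arm was analysed here.

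Replicate 1 held 26183147 tags, meaning aligned reads, and replicate 2 held 15756702. The score of a peak, read as the authors' rounded tag count on a common scale of 10000000 tags, is given in normalised tags. One unit of it was worth 2.62 tags in replicate 1 against 1.58 in replicate 2. With 2 libraries of 1 group, no test between conditions was possible. Values are therefore given for each replicate, and 95% intervals cover counting error only, except where the spread between sites is named.

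FOXA2 peaks lay more densely on 20q than on 20p in both replicates. Replicate 1 had 22.8 peaks per Mb on 20p and 37.9 on 20q, a 1.66-fold difference. Replicate 2 had 8.78 and 12.9 peaks per Mb, a 1.47-fold difference. The mean of both ratios was 1.57 ± 0.133 (SD, n = 2). Shared sites, meaning replicate 1 peaks that overlap a replicate 2 peak by at least 1 bp, numbered 216 on 20p and 385 on 20q. This gave 8.21 and 11.5 per Mb, 1.40 times as many on 20q (95% interval 1.18 to 1.65). Replicate 1 peaks without an overlapping peak in the replicate 2 list differed more, with 14.6 per Mb on 20p and 26.5 on 20q, or 1.81-fold. The summed score per Mb on 20q was 2.44 times that on 20p in replicate 1 and 2.28 times in replicate 2. Lengths are the 1 Mb bins that held a peak, 26.3 Mb of 20p and 33.6 Mb of 20q. Among peaks of 20 or more the mean ratio was 2.38.

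Within an arm the bins varied far more than the arms did. On 20p a bin held between 3 and 43 replicate 1 peaks with a median of 23, and between 1 and 21 replicate 2 peaks with a median of 7. On 20q the range was 7 to 83 with a median of 39 in replicate 1, and 1 to 39 with a median of 11 in replicate 2. The bins of the arms therefore overlapped widely. At least 33 replicate 1 peaks, the upper quartile of all 2828 occupied bins of the genome, were found in 7 of 27 bins of 20p (25.9%) and in 19 of 34 bins of 20q (55.9%), against 26.2% of all bins. The replicates followed each other along the chromosome. Spearman's rho between their peaks per Mb was 0.90 over 34 bins of 20q and 0.89 over 27 bins of 20p, across bins that share both libraries.

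**Figure D1:**
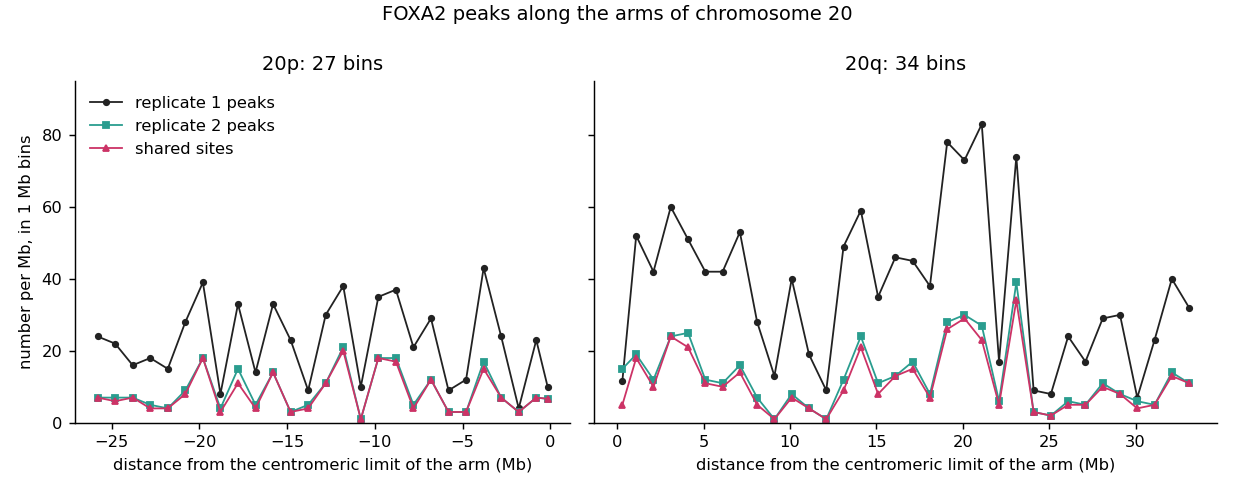
Replicate 1 peaks, replicate 2 peaks and shared sites per Mb (y axis) in 1 Mb bins, by distance in Mb from the centromeric limit of each arm (x axis; negative on 20p). The black line of replicate 1 stays at or below 43 on 20p and reaches 83 on 20q, and the lines of replicate 2 and of shared sites rise and fall with it.

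Deposited peaks of 20q scored higher than those of 20p, in both lists. Many weaker candidate peaks of chromosome 20 are missing from the lists, as described later, so scores by arm describe only the peaks that remained. In replicate 1 the median score was 7 on 20p (interquartile range 5 to 13) and 9 on 20q (6 to 17), with 8 (5 to 14) on the other chromosomes. In replicate 2 the medians were 10 (8 to 17) on 20p, 15 (10 to 27) on 20q and 11 (8 to 20) elsewhere. The 20q median was 1.29 times that of 20p in replicate 1 and 1.50 times in replicate 2, a mean of 1.39 ± 0.152 (SD, n = 2). Shared sites showed a similar gap, with replicate 1 medians of 16 on 20p and 24 on 20q and replicate 2 medians of 11 and 16. Peaks found in replicate 1 alone had medians of 6 on 20p and 7 on 20q.

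At scores of 50 or more the arms lay on opposite sides of the genome. A score of 50 or more was reached in replicate 1 by 8 of 600 peaks on 20p, or 1.33% (95% Wilson interval 0.677% to 2.61%). On 20q it was reached by 82 of 1274, or 6.44% (5.22% to 7.92%), against 3.87% of all replicate 1 peaks. In replicate 2 the shares were 2.60% on 20p, with 6 peaks (1.20% to 5.55%), and 11.5% on 20q, with 50 peaks (8.83% to 14.8%), against 6.39% of all. No peak of 20p scored 100 or more in either replicate (upper 95% limits 0.636% and 1.64%). On 20q 20 replicate 1 peaks did, or 1.57% (1.02% to 2.41%), against 0.815% on the other chromosomes. The 6 replicate 2 peaks of 20q that did made up 1.38% (0.634% to 2.98%), near the 1.23% of the other chromosomes. At a limit of 20, the replicate 1 shares were 14.8% on 20p and 21.3% on 20q, against 16.4% of all peaks. The replicate 2 shares at that limit were 21.2% and 34.3%, against 27.1%. The lower end moved the other way: scores of 5 or less made up 29.7% of replicate 1 peaks on 20p and 20.2% on 20q, against 27.5% of all.

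**Figure D2:**
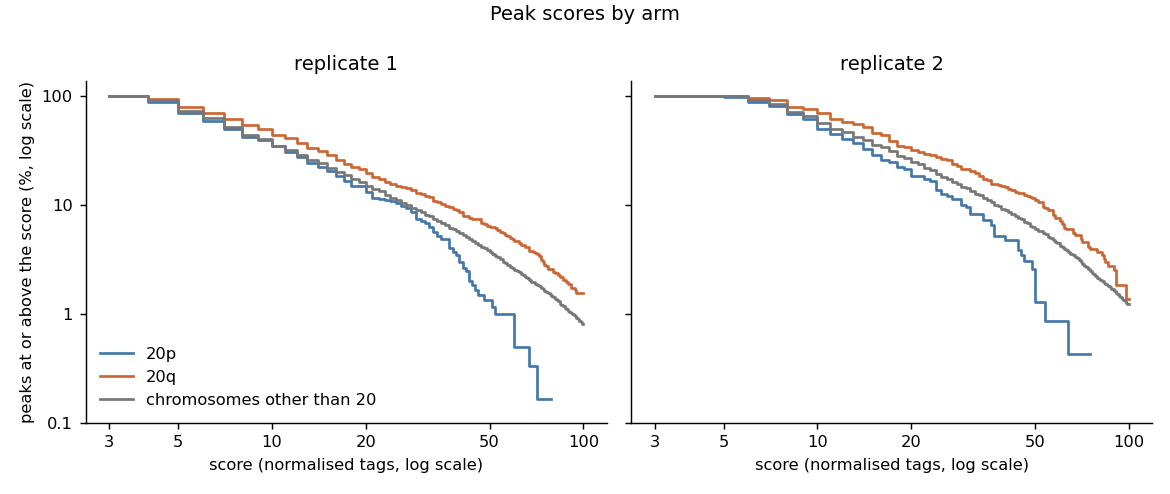
Percentage of peaks (y axis, log scale) at or above each score in normalised tags (x axis, log scale), up to 100, for 20p, 20q and the chromosomes other than 20, in each replicate. The 20q curve lies highest in both panels. The 20p curve lies below that of the other chromosomes from a score of 4 in replicate 1 and 6 in replicate 2. It ends at 79 in replicate 1 and 75 in replicate 2.

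Shared sites were ranked over the genome by the mean of their score ranks in both replicates. Among the best 10.0% of all shared sites were 10 of 216 sites of 20p (4.63%) and 74 of 385 sites of 20q (19.2%). Among the best 0.998%, or 243 sites, were no site of 20p and 8 sites of 20q.

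The strongest shared site of 20q, at chr20:40279271-40279393, scored 386 in replicate 1 and 218 in replicate 2, a mean of 302 ± 119 (SD, n = 2). It ranked 14 of all shared sites in the genome. It was also isolated, since its nearest shared neighbour lay 43.4 kb away and its 1 Mb bin held only 4 shared sites. The next, at chr20:62661966-62662088, close to the end of the long arm, scored 199 and 176 (188 ± 16.3) and showed the closest agreement of the 5. The site at chr20:43023215-43023337 scored 229 and 140 (184.5 ± 62.9), and the site at chr20:50320447-50320569 scored 227 and 113 (170.0 ± 80.6). The fifth, at chr20:48385068-48385190, scored 179 and 107 (143 ± 50.9) and shared its place with a run of 4 sites described later. The replicate 1 score was 1.13 to 2.01 times the replicate 2 score at these 5 sites, and the centres differed by at most 17 bp between the replicates.

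On 20p the strongest shared sites were several times weaker. The first, at chr20:14123938-14124060, scored 67 in replicate 1 and 64 in replicate 2 (65.5 ± 2.12, SD, n = 2) and ranked 1050 in the genome. The site at chr20:17702790-17702912 scored 79 and 54 (66.5 ± 17.7), and another shared site lay only 0.313 kb from it. The site at chr20:7127961-7128083 scored 71 and 50 (60.5 ± 14.8). The remaining 2, at chr20:19996568-19996690 and chr20:6690991-6691113, scored 60 and 49 (54.5 ± 7.78) and 52 and 46 (49 ± 4.24). The ranges of the arms' 5 strongest sites did not overlap in either replicate: the lowest of the 20q sites scored 179 and 107, and the highest of these 20p sites 79 and 64. The sites were picked by these scores, so this is a description only. A 20p site outside the 5, at chr20:26189964-26190086, scored 75 in replicate 2.

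Although 20q peaks scored higher, fewer of them were found in both replicates. Of replicate 1 peaks, 36.0% were shared on 20p (95% Wilson interval 32.3% to 39.9%) and 30.2% on 20q (27.8% to 32.8%), against 38.1% of all replicate 1 peaks. Of replicate 2 peaks, 93.5% were shared on 20p (89.6% to 96.0%) and 88.5% on 20q (85.2% to 91.2%), against 90.5% of all. The gap was wider between peaks of like score. Of replicate 1 peaks that scored 10 to 19, 57.5% were shared on 20p (84 of 146, 49.4% to 65.3%) and 31.5% on 20q (114 of 362, 26.9% to 36.4%). On the other chromosomes 59.9% of such peaks were shared (59.1% to 60.7%). From 20 to 39 the shares were 91.2% on 20p (82.1% to 95.9%), 75.8% on 20q (68.5% to 81.8%) and 92.8% elsewhere. From 6 to 9 they were 20.3%, 10.2% and 20.9%, and at 5 or less 6.18%, 1.17% and 6.33%. At 40 or more, all 21 peaks of 20p and 110 of 114 peaks of 20q were shared. In each of the 4 classes below 40, 20p thus lay within its counting interval of the other chromosomes and 20q below them. The score classes were set after the lists had been seen, and the cause of the gap was not tested. Sharing was counted among deposited peaks only. Of the candidate peaks of chromosome 20, 41.5% in replicate 1 and 37.0% in replicate 2 are missing from the lists, as described later. Over all chromosomes it was 19.1% and 14.8%. A partner among the missing candidates would not be seen. With both lists limited to scores of 20 or more, which also removes partners, 49.4% of replicate 1 peaks were shared on 20p and 52.4% on 20q. For replicate 2 peaks the order of the arms turned at scores of 10 or more, with 86.1% and 89.5%, and at 20 or more, with 89.8% and 95.3%.

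**Figure D3:**
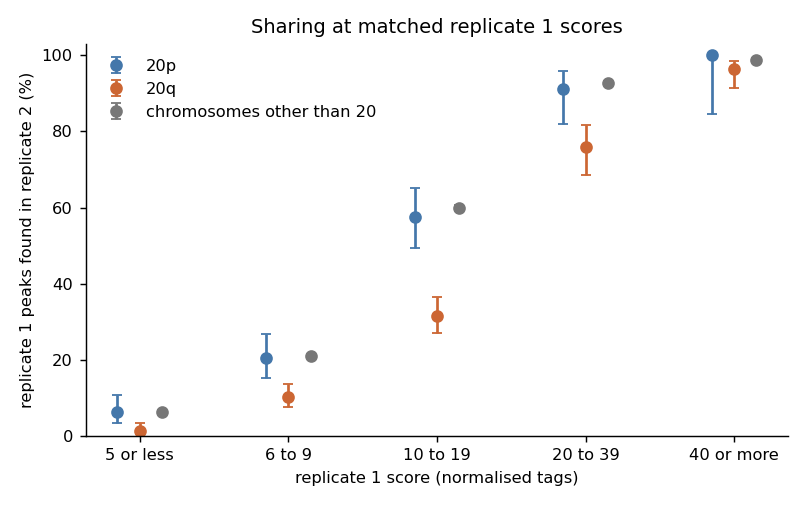
Percentage of replicate 1 peaks that overlap a replicate 2 peak (y axis) by class of replicate 1 score in normalised tags (x axis), for 20p, 20q and the other chromosomes, with 95% Wilson intervals as bars. The 20q points lie below the others in the 4 classes under 40, with the widest gap at 10 to 19, where they are 57.5%, 31.5% and 59.9%.

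Seen from replicate 2, the gap lay among the weak peaks. At scores of 6 to 9, 68.3% of replicate 2 peaks on 20q had a replicate 1 partner (69 of 101, 95% Wilson interval 58.7% to 76.6%). On 20p the share was 91.8% (84.0% to 96.0%), and elsewhere 82.5%. At scores of 20 to 39 all 84 peaks of 20q were shared.

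Strong replicate 1 peaks without any deposited replicate 2 peak nearby were also more frequent on 20q. A replicate 2 candidate that is missing from the list would not be seen here. Among peaks that scored 20 or more, 33 of 271 on 20q had no replicate 2 peak within 500 bp, or 12.2% (95% Wilson interval 8.80% to 16.6%). On 20p it was 3 of 89, or 3.37% (1.15% to 9.45%), against 3.40% of all such peaks in replicate 1. The strongest was on 20q at chr20:50413931-50414053, with a score of 47, and its nearest replicate 2 peak lay 5.96 kb away. On 20p it was the peak at chr20:13100265-13100387, with a score of 29. No replicate 2 peak of 20 or more lacked a replicate 1 peak within 500 bp on either arm. The strongest that did scored 18 on 20q, at chr20:50419881-50420031, and 10 on 20p, at chr20:1380666-1380816.

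At shared sites the replicates' scores also stood in a different proportion on 20q. The replicate 1 score divided by the replicate 2 score had a median of 1.22 on 20p, 1.38 on 20q and 1.20 on the other chromosomes. On the log2 scale these are 0.29, 0.47 and 0.26, with an SD between sites of 0.62, 0.59 and 0.62. The difference between the arms was 0.18. Its 95% interval, 0.05 to 0.31, comes from the spread between sites, which are not replicates, and does not cover the spread between libraries. Among sites of 20 or more in both replicates the medians were 1.21 on 20p (44 sites) and 1.41 on 20q (142 sites). The replicate 1 score was the higher at 149 of 216 sites of 20p (69.0%) and at 298 of 385 sites of 20q (77.4%), against 63.7% of all shared sites. Every peak of a list had the same width, 123 bp in replicate 1 and 151 bp in replicate 2.

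The number of replicate 1 peaks per replicate 2 peak was 2.60 on 20p (95% exact interval 2.23 to 3.04) and 2.93 on 20q (2.62 to 3.27). The ratio of these, 1.13, had an interval of 0.935 to 1.36. These intervals treat the 2 lists as independent, although 93.5% of replicate 2 peaks on 20p and 88.5% on 20q were shared. They therefore do not settle if the arms differed in the full lists. The gap widened when each list was reduced to the same number of best-scored peaks over the genome, with 1.05 on 20p and 1.51 on 20q. At a score of 20 or more in both lists it closed, with 1.82 on either arm. Among bins with 10 or more replicate 2 peaks, 3 of 9 on 20p and 17 of 19 on 20q exceeded 2.38, the ratio of the whole lists, against 38.5% of 1171 such bins in the genome. The medians of these bins were 2.20 on 20p and 2.86 on 20q, and 2.24 over the genome. The filter acts on the denominator of the ratio, so it favours bins with low ratios. It kept 9 of the 27 occupied bins of 20p and 19 of the 34 of 20q. Bins of 20p left out had ratios from 1.33 to 10, and the 2.60 of all 20p peaks exceeded 2.38. The filtered bins may therefore overstate the gap between the arms.

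**Figure D4:**
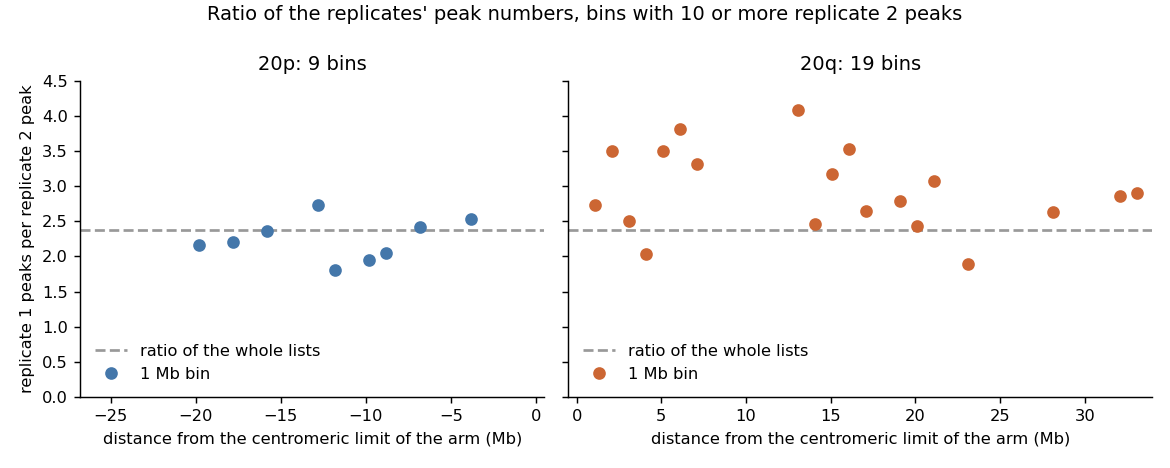
Replicate 1 peaks per replicate 2 peak (y axis) in 1 Mb bins with 10 or more replicate 2 peaks, by distance in Mb from the centromeric limit of the arm (x axis; negative on 20p), with the ratio of the whole lists as a dashed line. On 20q 17 of 19 bins lie above the line, spread along the arm, and on 20p 3 of 9 do. The filter kept 19 of 34 occupied bins of 20q and 9 of 27 of 20p.

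Along 20q the density changed in blocks, while the ratio of the replicates showed little trend with position. Cut into 3 stretches of 11.2 Mb, 20q had 39.9, 47.7 and 26.5 replicate 1 peaks per Mb from the centromere outwards. Replicate 2 peaks per Mb were 13.3, 15.9 and 9.85, and shared sites 11.5, 14.1 and 8.96. Replicate 1 peaks per replicate 2 peak were 3.01 (95% exact interval 2.49 to 3.65), 3.01 (2.54 to 3.59) and 2.69 (2.15 to 3.38), with intervals that overlap. Median scores were 9, 10 and 9 in replicate 1 and 14, 15 and 15 in replicate 2. The lower sharing held in each stretch: of replicate 1 peaks scoring 10 to 19, 32.2%, 30.8% and 31.8% were shared. Over 34 bins, Spearman's rho with position was -0.28 for replicate 1 peaks per Mb and -0.04 for the ratio. On 20p, over 27 bins, these were -0.08 and -0.15.

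The densest block of 20q ran from 48000001 to 53000000. Its 5 bins made up 14.9% of the occupied length and held 25.5% of the replicate 1 peaks, 29.9% of the replicate 2 peaks and 30.4% of the shared sites of the arm. The bin from 52000001 to 53000000 had the most shared sites of the chromosome, 34, with 74 replicate 1 and 39 replicate 2 peaks. In the genome 18 bins held at least that many shared sites. The bin from 49000001 to 50000000 held 29 shared sites, and the bin from 48000001 to 49000000 held 26. The bin from 50000001 to 51000000 had the most replicate 1 peaks, 83, but 23 shared sites. Between these lay a poor bin, from 51000001 to 52000000, with 17 replicate 1 peaks and 5 shared sites. This block of 5 bins was picked after its values were seen.

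Sparse bins broke up the arm as well. The lower quartile of replicate 1 peaks over all 2828 occupied bins of the genome was 9. Fewer than 10 were found in 4 of the 26 whole bins of 20p and in 4 of the 33 whole bins of 20q, so neither arm was rich in sparse bins. Those of 20q were the bins from 41000001 to 42000000 with 9, from 53000001 to 54000000 with 9, from 54000001 to 55000000 with 8 and from 59000001 to 60000000 with 7. The edge from the densest shared-site bin to the sparse pair was abrupt, from 74 replicate 1 peaks to 9 and 8. At least 20 shared sites were found in 7 of the 33 whole bins of 20q and in 1 of the 26 of 20p, against 236 of 2828 bins of the genome.

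Ratios of replicate 1 to replicate 2 peaks on 20q were compared among bins with 10 or more replicate 2 peaks. With this filter a high ratio requires many replicate 1 peaks. Bins left out by it had ratios from 0.778 to 13. The highest under the filter were 4.08 in the bin from 42000001 to 43000000, with 49 and 12 peaks, 3.82 in the bin from 35000001 to 36000000, with 42 and 11, and 3.54 in the bin from 45000001 to 46000000, with 46 and 13. The lowest under the filter were 1.90 in the bin from 52000001, 2.04 in the bin from 33000001 to 34000000, with 51 and 25 peaks, and 2.43 in the bin from 49000001. Of these, the bins from 52000001 and 49000001 were also the pair with the most shared sites. Neighbours along the arm could differ widely: the bin from 43000001 to 44000000 had 59 and 24 peaks, a ratio of 2.46, beside the 4.08 of the bin before it.

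On 20p the bins with the most shared sites were from 14000001 to 15000000, with 20, from 16000001 to 17000000, with 18, and from 6000001 to 7000000, with 18. They held 38, 35 and 39 replicate 1 peaks and 21, 18 and 18 replicate 2 peaks, ratios of 1.81, 1.94 and 2.17. In the genome 236 of 2828 bins held at least 20 shared sites.

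Shared sites lay in small groups on both arms. Another shared site within 10 kb was found for 66 of 216 sites of 20p (30.6%) and for 142 of 385 sites of 20q (36.9%), against 39.0% of all shared sites, so neither arm was richer in neighbours than the genome. The median distance to the nearest shared site was 19.9 kb on 20p, 14.1 kb on 20q and 16.0 kb elsewhere. Runs of at least 3 shared sites no more than 10 kb apart numbered 10 among the 216 sites of 20p and 19 among the 385 of 20q. These counts grow with the number of sites, and runs on other chromosomes were not counted. The run with the most sites was on 20p, from 19860885 to 19879474, with 5 sites in 18.6 kb that scored 6 to 40 in replicate 1 and 7 to 45 in replicate 2. On 20q no run held more than 4 sites. One, from 48380113 to 48392069, contained the fifth strongest site of the arm beside weaker ones, down to 17 and 14. Another, from 50633563 to 50656921, held sites of 12 to 112 in replicate 1 and 20 to 70 in replicate 2. The runs were examined after the lists had been seen.

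In each file every peak carries a number within its chromosome, and the numbers have gaps. Summed over the chromosomes, the highest numbers came to 79078 in replicate 1, where the header counts 79191 putative peaks, and to 31589 of 31642 in replicate 2. The numbers without a peak, 15129 and 4682, equal 99.3% and 98.9% of the putative peaks that the headers count as removed. They were therefore read as putative peaks removed by the authors' filters. Of those removals, 79.1% in replicate 1 and 81.4% in replicate 2 were for too little excess over input, per the file headers, and 20.9% and 17.3% for too little excess over the surrounding 10000 bp. The filter behind a single missing number is not recorded.

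Chromosome 20 lost the largest share of its putative peaks in both replicates, among chromosomes 1 to 22 and X. In replicate 1, 1327 of 3201 numbers had no peak, or 41.5%, against 19.1% of all numbers. Chromosome 11 came next with 34.4%, then chromosome 2 with 24.8%, and the median of the other 22 chromosomes was 14.7%. In replicate 2, 393 of 1061 numbers had no peak, or 37.0%, against 14.8% of all, followed by chromosome 21 with 26.5%. The lowest shares were on chromosome X, 3.58% and 4.66%. Chromosome 20 thus held 4.05% of the numbers of replicate 1 but 2.93% of its deposited peaks, and 3.36% and 2.48% in replicate 2. A missing number has no position, so these losses could not be divided between 20p and 20q.

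The losses were greatest among weak putative peaks but reached further up on chromosome 20 than elsewhere. Numbers follow the strength of a peak roughly, with 1 the strongest. In the strongest 10% of the numbers of chromosome 20, 0 of 321 were missing in replicate 1 and 1 of 107 in replicate 2. From 40% to 50% down the numbering, where deposited peaks of chromosome 20 had a median score of 7 and 10, 42.8% and 29.2% were missing, against 11.6% and 5.70% on the other chromosomes. In the last 10%, 85.0% and 84.9% were missing, against 49.1% and 43.4%. With every number counted as a peak, the ratio of replicate 1 to replicate 2 on chromosome 20 was 3.02, against 2.81 for the deposited peaks. On the other chromosomes it was 2.49 against 2.37.

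**Figure D5:**
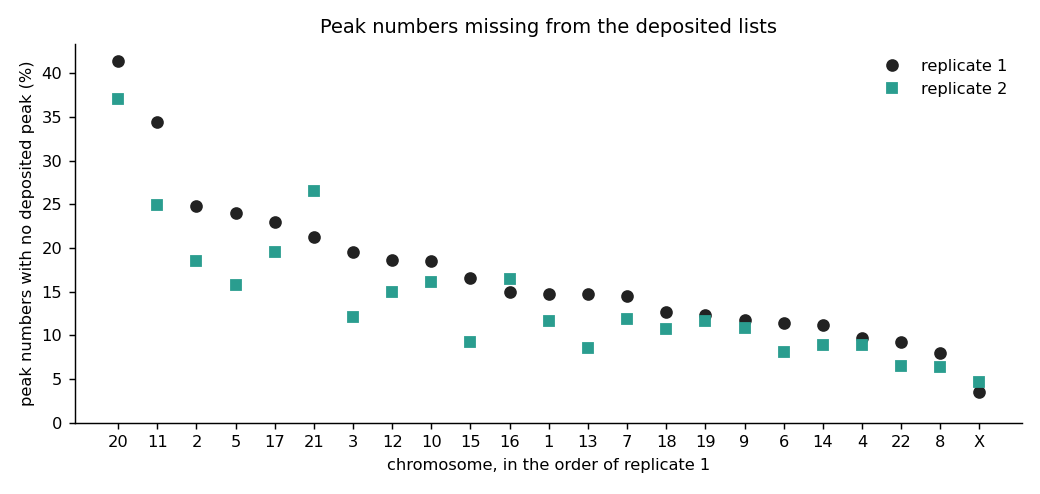
Percentage of peak numbers without a deposited peak (y axis) for chromosomes 1 to 22 and X (x axis, in the order of replicate 1), with circles for replicate 1 and squares for replicate 2. Chromosome 20 stands highest in both replicates, at 41.5% and 37.0%, and chromosome X lowest.

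Set beside other chromosomes, each cut at its longest stretch without peaks of either list, 20q stood near the edge of several measures, and the place of 20p varied with the measure. On this count, by whole bins, 43 parts held at least 100 replicate 1 peaks. The part that is 20q had the most replicate 1 peaks per Mb, 37.5, above the 7.26 to 35.9 of the 41 parts outside chromosome 20. It had the highest median score of replicate 2, 15 against 10 to 13, and the smallest share of replicate 1 scores of 5 or less, 20.2% against 21.2% to 33.1%. Its ratio of replicate 1 to replicate 2 peaks, 2.93, and its low share of shared replicate 1 peaks, 30.2%, were second to a part of chromosome 19, with 3.43 and 26.9%. It was the fourth in replicate 2 peaks per Mb, with 12.8, and in shared sites per Mb, with 11.3. All these measures describe deposited peaks, and chromosome 20 had lost the largest share of its putative peaks in both replicates. The part before the gap, 20p with the 2 peaks between the arms, ranked 20 of 43 in replicate 1 peaks per Mb and 25 in shared sites per Mb. It ranked 9 in replicate 1 peaks per replicate 2 peak, with 2.58, and 32 in the share of replicate 1 peaks shared. In the share of replicate 2 peaks shared it ranked 4, with 92.7%, and its replicate 1 median score of 7 was tied for the lowest. This is an order of parts, with no test.

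Within 1 Mb of its limit 20p held 16 replicate 1 peaks and 7 replicate 2 peaks, and 20q held 29 and 18. The last 20p peaks, at chr20:26189964-26190086 in replicate 1 and chr20:26190019-26190169 in replicate 2, scored 37 and 75, one of the sites where replicate 2 scored higher. Just beyond the limit lay the 2 replicate 2 peaks between the arms, at chr20:26302710-26302860 and chr20:26310437-26310587, with scores of 15 and 13 and no replicate 1 partner. The first 20q peaks, at chr20:29521045-29521167 and chr20:29521042-29521192, scored 70 and 46 and were shared. The 0.6 Mb of 20q nearest the limit was unlike the rest of the arm, with 7 replicate 1 peaks, 9 replicate 2 peaks and 3 shared sites.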

How the data were processed

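The submitters' processing notes name the hg19 build, Bowtie 1.0.0 and HOMER 1.2. The authors called peaks in each replicate alone with HOMER findPeaks, per the file headers, with an input library as control. A peak had to exceed both the input and its surroundings 4-fold, at a false discovery rate of 0.001. The deposited score was read as a normalised tag count rounded to whole numbers. Scores summed and scaled back to tags exceeded the headers' tags in peaks by 0.450% and 0.196%. The deposited positions are 0-based and are given here 1-based.

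Peaks were paired by overlap of at least 1 bp with Python 3.11.15, numpy 2.4.6, pandas 2.3.3 and scipy 1.17.1, and figures were drawn with matplotlib 3.10.9. Shares have 95% Wilson intervals, and ratios of peak numbers exact (Clopper-Pearson) or log-normal ones, which treat the counts as independent. The interval of the difference in score ratio between the arms comes from the spread between shared sites. The pairing was tested on simulated data. Named regions are the 5 shared sites of best mean rank and the 3 bins with most shared sites in each arm, the 3 highest and 3 lowest ratios on 20q, and the strongest peak of each arm and replicate without a partner within 500 bp. The members and measures were chosen with earlier results of these data known. Gene annotation and peak sequences of hg19 were not used here, so no gene is assigned to a peak. The input library's own values were not analysed here.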

Additional observations from a re-analysis of the deposited data

How the results depend on the processing

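Of 37 alternatives over 10 results, 29 stayed within the interval or spread of the reported value, 5 moved beyond it and 3 changed direction. Leaving out a replicate could not move the density or score ratio beyond its spread, which was the SD of the same 2 values. The 20q to 20p ratio of replicate 1 per replicate 2 peaks was 1.00 at 20 or more. It still lay within the wide interval around 1.13. The ratio of 20q to 20p in peaks per Mb, 1.57 as the mean of both replicates, was 1.96 for peaks with a score of 10 or more and 2.38 at 20 or more. It was 1.47 without replicate 1 and 1.66 without replicate 2. The ratio of median scores, 1.39, fell to 1.11 and 1.17 at these limits, which remove the weak peaks of both arms, and ranged from 1.29 to 1.50 when either replicate was left out. With the same number of best-scored peaks from each list, the ratio of 20q to 20p in replicate 1 per replicate 2 peaks was 1.44 in place of 1.13. The 20q minus 20p difference in the share of peaks shared changed sign when both lists were limited by score, a limit that also removes partners. For replicate 1 it went from -5.78 percentage points to 2.96 at 20 or more. For replicate 2 it went from -5.00 to 3.41 at 10 or more and 5.51 at 20 or more. The difference at replicate 1 scores of 10 to 19, -26.0 points, stayed between -26.7 and -22.8 under 3 alternatives chosen after seeing the data. No paired analysis was possible because the replicates belong to 1 group. Results on overlap or on the ratio of the replicates have no value with a replicate left out. The lowest scores were 3 in replicate 1 and 5 in replicate 2, and no alternative matched the depth of the libraries.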
